A study of Mus musculus with 4 samples.

Results

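Leukocyte adhesion molecules of endothelium were examined as 8 genes chosen by symbol, out of 24063 gene symbols in the tables: the selectins Sele and Selp, the selectin ligand Selplg, the immunoglobulin family receptors Vcam1, Icam1 and Madcam1, and Pecam1 and Cd99l2, which act at cell junctions. RNA was measured in mouse lung endothelial cells (ECs) of strain C57BL6 (C57BL6J in the study's methods), aged 8 weeks. The PNX group had its lungs collected 7 days after unilateral pneumonectomy (PNX), the surgical removal of the left lung, and the sham group had an opened chest without removal of lung. The labels name no mutant allele, and per the study's methods mice received the analgesic meloxicam. Both groups comprised 2 libraries, each described as ECs of 2 mice pooled, so the spread between libraries is taken as a spread between pools. ECs were selected with an antibody to CD31, the product of Pecam1, and magnetic beads, so that any cell with CD31 on its surface, including platelets and many leukocytes, could be retained. The study's methods add a second column and a check of the isolated cells by flow cytometry as CD31+, VE-cadherin+ and CD45-, a gate that leukocytes do not pass. Each gene was represented by its RefSeq transcript with the most counts, and 7 of the 8 genes had enough counts to be tested.

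Leukocytes leave the blood in steps. Selectins on activated ECs catch and roll them through sugar-bearing ligands, of which P-selectin glycoprotein ligand (Selplg) is the best known. Integrins on the leukocyte then bind Icam1 and Vcam1 and stop the cell, and Pecam1 and Cd99l2 guide its passage through the junctions. P-selectin (Selp) protein is stored ready-made in Weibel-Palade bodies of ECs and in platelet granules. E-selectin (Sele) and most Vcam1 are made anew when cytokines such as TNF and IL1 switch on NF-kB in the endothelium. Lung capillaries carry much Icam1 at rest, and Madcam1 is the addressin of mucosal venules of the gut.

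The libraries held between 41367438 and 50952879 counts on 1 transcript per gene, so that the smallest level considered, 3 counts, lay between 0.0589 and 0.0725 CPM, counts scaled to the library total (counting error only). The labels and the study's methods describe male mice. However, the 44 genes of chromosome Y in the tables had 0 counts in each of the 4 libraries. Xist had between 29890 and 36875 counts. These values are at odds with male mice, so the stated sex of the samples is in doubt. This holds for every library, so no result could be given without such libraries. Endothelial marker genes were high, with Cdh5 at 110261 ± 596 (SD, n = 2) normalized counts in sham, but alveolar type 2 cell RNA was high as well, with Sftpc at 171019 ± 364 (SD, n = 2) in sham. Normalized counts are counts scaled by edgeR's TMM method to the mean library size. Of 12 endothelial marker genes, 11 were lower and 1 was higher after PNX, and their summed level fell from between 445086 and 450372 to between 364593 and 366255 normalized counts. Scaling the libraries to these 12 genes in place of TMM raised the median log2 fold change over all genes from 0.00 to 0.29, and values under this scaling are given below as those with the endothelial scaling.

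Promoter windows of RefSeq (GRCm38.p6, the sequence of mm10) were found for 5 of the 8 genes, Sele, Selp, Icam1, Madcam1 and Cd99l2. The 250 bases before the start of the 3 genes printed here show the part of the gene through which NF-kB is known to act, for both selectins, whose RNA changed most, and for Icam1, whose RNA changed little. Capitals mark matches to GGNNNTTCC, a short form of the NF-kB binding motif, on either strand. The motif was chosen after the sequences and the fold changes had been seen. It was found in 4 of the 5 windows (not in that of Cd99l2) and in 15.7% of the 32851 promoter windows of the same length. Because the motif was chosen in this way, these shares cannot test for enrichment. The window of Madcam1, not printed here, held 2 matches although its RNA was not detected. A match says only that these letters are there.
Sele (upstream of transcript NM_011345), chr1:164047984-164048233, plus strand: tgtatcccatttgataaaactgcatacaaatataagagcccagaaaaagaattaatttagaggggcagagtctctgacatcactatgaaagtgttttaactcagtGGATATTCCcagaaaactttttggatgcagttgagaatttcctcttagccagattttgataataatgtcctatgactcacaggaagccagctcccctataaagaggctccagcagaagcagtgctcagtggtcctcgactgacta
Selp, chr1:164115014-164115263, plus strand: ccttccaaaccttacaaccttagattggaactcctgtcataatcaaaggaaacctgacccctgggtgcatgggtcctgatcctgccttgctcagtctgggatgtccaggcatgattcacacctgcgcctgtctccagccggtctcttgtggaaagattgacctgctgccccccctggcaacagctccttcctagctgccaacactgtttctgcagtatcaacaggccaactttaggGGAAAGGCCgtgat
Icam1, chr9:21015690-21015939, plus strand: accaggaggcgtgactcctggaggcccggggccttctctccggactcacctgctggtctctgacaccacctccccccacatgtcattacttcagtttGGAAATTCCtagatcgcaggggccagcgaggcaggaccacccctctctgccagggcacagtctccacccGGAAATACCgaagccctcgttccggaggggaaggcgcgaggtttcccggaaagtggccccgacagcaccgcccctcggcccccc
Counted back from the start of the gene, the match began at position -145 in Sele and at -14 in Selp, where it was on the opposite strand. Icam1 had a match at -153 and another, on the opposite strand, at -84. The G and C content of the windows was 40.4% for Sele, 53.6% for Selp and 65.2% for Icam1.

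To ask whether RNA of the adhesion molecules differed between post-PNX and sham ECs, counts of the 16208 genes kept by edgeR's low-count filter were compared with the quasi-likelihood test. The p-values were adjusted over all of these genes by the Benjamini-Hochberg method. A gene was called by the p rule when its adjusted p was under 0.01, and by the fold rule when its log2 fold change was also beyond 1. Both selectins, Vcam1 and Selplg were higher after PNX, Cd99l2 was slightly lower, Icam1 and Pecam1 were not called, and Madcam1 was not detected. Thus 4 of the 7 genes tested were called higher by the p rule, against 29.3% of all genes, and 1 was called lower, against 27.8%. By the fold rule 1 gene, Selp, was called higher, against 5.9% of all genes, and none was called lower, against 1.66%. With the endothelial scaling the split over all genes moved to 10174 higher and 1230 lower, and the p rule called all 7 genes higher. In bulk RNA, more cells of a type and more RNA per cell cannot be told apart.

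**Figure D1:**
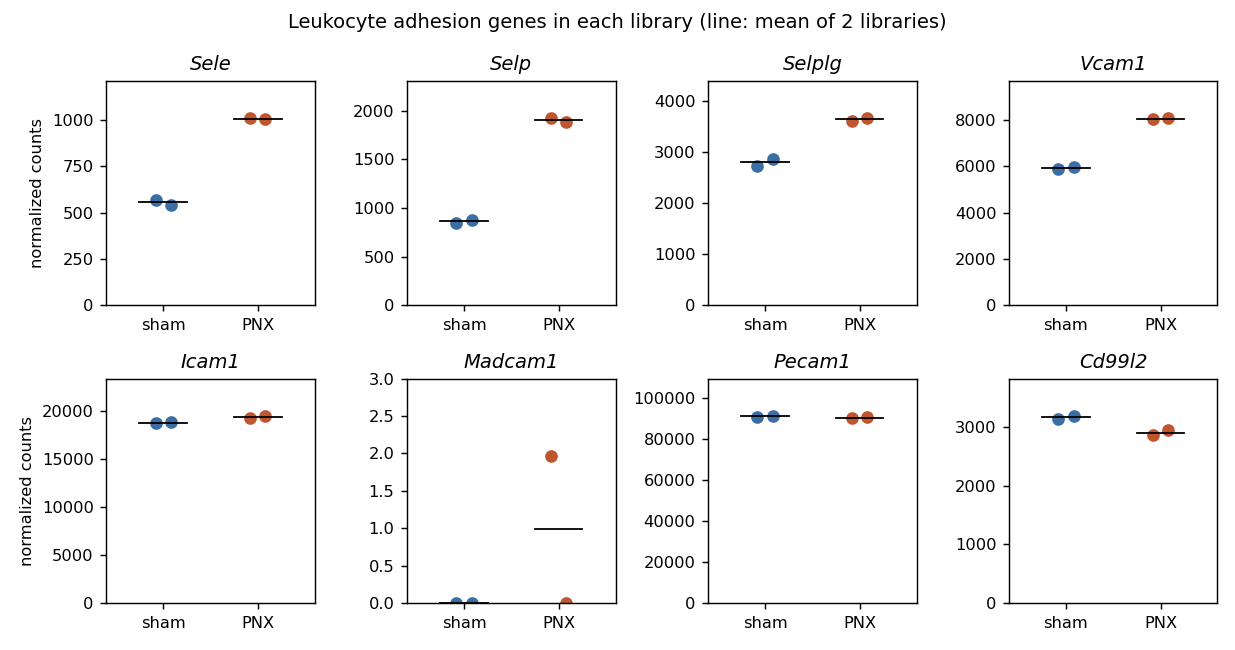
Normalized counts (vertical axis, linear, from 0, with its own range for each gene) of the 8 adhesion genes in the 2 sham and the 2 PNX libraries. Points are libraries and the line is the mean of 2. Sele, Selp, Selplg and Vcam1 lie higher in both PNX libraries than in both sham libraries, Icam1 and Pecam1 lie almost level, and Madcam1 reads 0 in 3 libraries.

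Selp, the gene of P-selectin, showed the largest change of the 7 genes. It had 848 and 880 normalized counts under sham, against 1923 and 1890 after PNX. Both PNX libraries lay above both sham libraries, and the gap was many times the distance between libraries of a group. The means were 864 ± 22.5 (SD, n = 2) and 1906 ± 23.6 (SD, n = 2), a 2.21-fold difference with a log2 fold change of 1.14 ± 0.045 (SE), at an adjusted p of 1.4e-31 by edgeR. Selp lies on chromosome 1 from 164115264 to 164150026 (mm10) on the plus strand and its exons overlap those of Gm16587 and Gm16548, annotated non-coding genes on the opposite strand. The library kit kept strand, but whether the counting used it is not given in the sources used here.

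Platelets also hold P-selectin RNA, so markers of platelets and megakaryocytes were read beside it. Of the 6 markers, 4 were higher by the p rule and none was lower, beside 29.3% and 27.8% of all genes. Their median log2 fold change was 0.32. With the endothelial scaling 6 were higher, beside 10174 of all 16208 genes. The marker counts given below are to be read beside these same shares. The summed level of the 6 markers went from between 2602 and 2716 normalized counts in sham to between 3896 and 3935 after PNX, and none of the 6 was at 0. The highest of them, Itga2b (log2 fold change 0.38) and Ppbp (0.26), encode platelet integrin alpha and a platelet chemokine. Pf4, a platelet chemokine that macrophages also express and which was named after its value was seen, went from a sham mean of 425 ± 33.7 to 1081 ± 42.9 (SD, n = 2 each), which is a log2 change of 1.34. The part of platelet RNA in the rise of Selp was not tested.

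Sele, the gene of E-selectin, is made by ECs and by few other cells. It had 568 and 542 normalized counts under sham, against 1008 and 1003 after PNX, which did not overlap. The means were 555 ± 18.2 (SD, n = 2) and 1006 ± 3.82 (SD, n = 2), a 1.81-fold difference. The log2 fold change was 0.86 ± 0.058 (SE), at an adjusted p of 2.3e-20 by edgeR, past the p rule but short of the fold rule. With the endothelial scaling it was 1.15, past both rules.

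Within each library, Selp rose over Sele as well. There were 1493 and 1622 counts of Selp per 1000 of Sele under sham, against 1907 and 1884 after PNX. This ratio does not depend on how libraries are scaled, and its log2 value was 0.28 higher after PNX. Per 1000 counts of Vwf, the main cargo of the bodies that store P-selectin, Selp had 16.0 and 16.2 counts in sham and 37.9 and 36.7 after PNX. Per 1000 counts of Cdh5, the gene of VE-cadherin, Sele had 5.17 and 4.90 counts in sham and 10.7 and 10.5 after PNX. With TMM, Cdh5 (log2 fold change -0.22) and Vwf (-0.07) were themselves lower, which enlarges these ratios. Per 1000 counts of Pecam1, which was not called with TMM, Sele had 6.26 and 5.95 counts in sham and 11.2 and 11.1 after PNX. On the same base Selp had 9.34 and 9.66 counts in sham and 21.3 and 20.9 after PNX.

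Sele and Selp lie close together on chromosome 1, and F5, the gene of coagulation factor V, lies next to Selp. F5 was named after its value was seen. It had 425 and 447 normalized counts under sham, against 1337 and 1329 after PNX. The means were 436 ± 15.3 and 1333 ± 5.74 (SD, n = 2 each), which is a log2 change of 1.62 ± 0.057 (SE), at an adjusted p of 3.5e-34 by edgeR. With the endothelial scaling it was 1.91.

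Selplg, the ligand that selectins bind on leukocytes, was listed with the endothelial molecules although leukocytes are its main source. It had 2738 and 2873 normalized counts under sham, against 3620 and 3663 after PNX. The groups did not overlap, and the sham libraries were the more spread. The means were 2805 ± 95.4 (SD, n = 2) and 3641 ± 30.0 (SD, n = 2), a 1.30-fold difference with a log2 fold change of 0.38 ± 0.031 (SE), at an adjusted p of 1.7e-16 by edgeR.

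Ptprc, which encodes the pan-leukocyte protein CD45, was not called with TMM (log2 fold change -0.00, adjusted p = 0.905 by edgeR) and was higher with the endothelial scaling (0.29, adjusted p = 5.5e-14). It had 11597 and 11535 normalized counts in sham and 11422 and 11665 after PNX, and the groups overlapped. Per 1000 counts of Ptprc there were 236.1 and 249.05 of Selplg under sham, against 317 and 314 after PNX. Of 5 markers of all leukocytes, 3 were higher, 1 was lower and 1 was not called, with a summed level between 37642 and 37660 normalized counts in sham and between 39738 and 40219 after PNX. With the endothelial scaling 5 of these 5 were higher.

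The kinds of leukocyte moved in different directions. Macrophage and monocyte markers were higher in 8 of 8 genes, with a summed level between 166486 and 167236 in sham and between 218225 and 218904 after PNX. Neutrophil markers were higher in 4 of the 5 genes found and lower in 1 (4 and 0 with the endothelial scaling), and their sum went from between 9435 and 9705 to between 10583 and 10938. T cell markers were lower in 6 of 6 genes (5 with the endothelial scaling) and B cell markers in 5 of 5, while edgeR called 0 of 5 natural killer cell markers, of which 2 had an unadjusted p under 0.05 (1 was higher with the endothelial scaling). None of these markers was at 0 in the tables although the methods name a CD45- check, and their part in the rise of Selplg was not tested.

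Vcam1, which binds the integrin formed by Itga4 and Itgb1, rose by a smaller step than the selectins. It had 5875 and 5964 normalized counts under sham, against 8027 and 8060 after PNX. Each PNX library was above each sham library, and libraries of a group were close. The means were 5919 ± 62.6 (SD, n = 2) and 8044 ± 23.4 (SD, n = 2), a 1.36-fold difference with a log2 fold change of 0.44 ± 0.024 (SE), at an adjusted p of 6.0e-25 by edgeR. Vcam1 lies on chromosome 3 from 116110020 to 116129688 (mm10) on the minus strand, and an exon of the antisense gene Gm43109 overlaps it.

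Stromal, mesothelial and macrophage cells can also express Vcam1, and their markers were higher after PNX. Fibroblast markers were higher in 4 of 5 genes and lower in 1 (5 and 0 with the endothelial scaling, where Pdgfra, named after its values were seen, turned from -0.23 to 0.06), and their summed level went from between 44602 and 44716 normalized counts in sham to between 161397 and 162085 after PNX. Mesothelial markers were higher in 5 of 5 genes, with sums between 7212 and 7338 in sham and between 18956 and 19138 after PNX. Markers of smooth muscle and pericytes were higher in 4 of 5 genes (5 with the endothelial scaling), with sums between 13454 and 13602 in sham and between 17615 and 17658 after PNX. None of these genes was at 0, and their part in the rise of Vcam1 was not tested.

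Icam1, the ligand of the integrins of Itgal, Itgam and Itgb2, was abundant and nearly level. It had 18787 and 18843 normalized counts under sham, against 19269 and 19502 after PNX. The PNX libraries lay above the sham libraries by a small margin. The means were 18815 ± 39.8 (SD, n = 2) and 19386 ± 165 (SD, n = 2), a log2 fold change of 0.04 ± 0.019 (SE), at an adjusted p of 0.0420 by edgeR, which missed the threshold. Scaling to the endothelial markers gave 0.34 (adjusted p = 4.4e-17), so the call for Icam1 depends on the scaling. An exon of the antisense gene Gm47079 overlaps Icam1 as well.

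Alveolar type 1 cells carry Icam1 as well, and 5 of their 5 markers were lower after PNX (4 of 5 with the endothelial scaling), with a summed level between 125384 and 125851 normalized counts in sham and between 93607 and 93816 after PNX. The highest were Clic5 (log2 fold change -0.35) and Ager (-0.38). None was at 0, and their part in the level of Icam1 was not tested. Within each library there were 3198 and 3160 counts of Icam1 per 1000 of Vcam1 in sham and 2400 and 2420 after PNX.

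Madcam1 had 0, 0, 2 and 0 counts in the first and second sham and the first and second PNX library. Both groups were at or under 3 counts, so expression was not detectable at this depth and no fold change is given. Its partner in the gut, Itgb7, was present with 2043 ± 38.0 (SD, n = 2) normalized counts in sham (log2 fold change -0.35 with TMM, and -0.06 and not called with the endothelial scaling), and Glycam1, another addressin, had 0 and 0 counts in sham and 6 and 5 after PNX, too few to be tested.

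Pecam1 encodes CD31, the protein by which the cells were selected, and holds ECs together and lets leukocytes pass. It had 90778 and 91118 normalized counts under sham, against 90193 and 90610 after PNX. Both PNX libraries lay just below both sham libraries, and the difference missed the threshold. The log2 fold change was -0.01 ± 0.015 (SE), at an adjusted p of 0.636 by edgeR, but 0.28 (adjusted p = 5.0e-18) with the endothelial scaling, where the direction turned. In a ratio that needs no scaling, Pecam1 had 826 and 823 counts per 1000 of Cdh5 in sham and 960 and 951 after PNX. Its 2 transcripts in the tables, NM_008816 and NM_001032378, shared nearly all counts, with 100203 and 100176 in the first sham library.

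Cd99l2, which takes part in late steps of passage through the endothelium, was the gene called lower. It had 3140 and 3183 normalized counts under sham, against 2855 and 2938 after PNX. The groups did not overlap, but the difference was small. The means were 3161 ± 30.1 (SD, n = 2) and 2896 ± 59.1 (SD, n = 2), a log2 fold change of -0.13 ± 0.032 (SE), at an adjusted p of 0.000401 by edgeR. The call was lost in DESeq2's Wald test (-0.13, adjusted p = 0.0173) and without the first PNX library (-0.10, adjusted p = 0.0262), and scaling to the endothelial markers turned the direction to 0.17. Cd99l2 lies on chromosome X from 71420060 to 71492866 (mm10), where the antisense gene Gm16189 overlaps an exon.

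**Figure D2:**
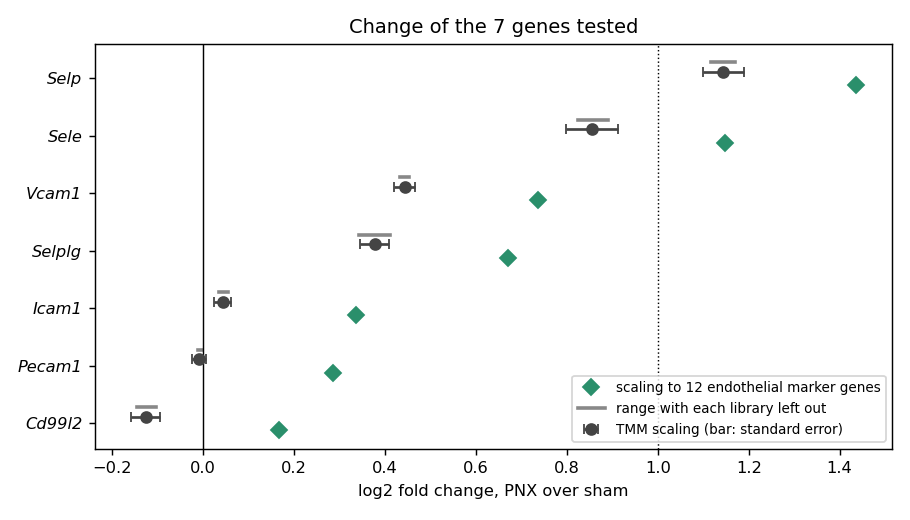
Log2 fold change of PNX over sham (horizontal axis) of the 7 genes tested, with TMM scaling (circle, bar of 1 standard error), with scaling to 12 endothelial marker genes (diamond) and as the range when each library was left out (grey line). The dotted line marks a log2 fold change of 1. Selp, Sele, Vcam1 and Selplg lie to the right of 0 in every setting drawn, whereas Pecam1 and Cd99l2 cross 0 with the endothelial scaling.

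To compare genes with each other, the deposited FPKM values, which are per kilobase of transcript, were used. In sham ECs Pecam1 stood highest at 374 ± 1.12 FPKM (SD, n = 2), followed by Icam1 at 101 ± 0.249, Vcam1 at 23.7 ± 0.259, Selplg at 14.6 ± 0.503, Cd99l2 at 11.9 ± 0.118, Selp at 3.41 ± 0.090 and Sele at 2.59 ± 0.084. After PNX the levels were 374 ± 0.553 for Pecam1, 104 ± 0.703 for Icam1, 32.3 ± 0.037 for Vcam1, 19.1 ± 0.123 for Selplg, 10.99 ± 0.205 for Cd99l2, 7.58 ± 0.107 for Selp and 4.72 ± 0.026 for Sele. The order was the same in both groups, and no neighbours in it overlapped between libraries of a group. The genes that changed most were thus the 2 lowest of those tested. Pecam1 held between 67.6% and 70.5% of the summed FPKM of the 8 genes in the 4 libraries, and the selectins together stayed a small part, with Selp at 0.633% and 0.653% in sham and 1.39% and 1.35% after PNX.

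The other genes of leukocyte adhesion were read from 6 lists with 83 genes, of which 81 were tested. By the p rule 40 of the 81 were higher and 20 lower after PNX, beside 29.3% and 27.8% of all genes. By the fold rule 3 were higher (Aoc3, Itgam and Adam8) and 2 lower (Itgad and Edn1), beside 5.9% and 1.66% of all genes, so that the 20 lower and the 3 higher were no larger a share than over all genes. The lists' medians lay between -0.01 and 0.12 on the log2 scale, beside 0.00 over all genes tested. With the endothelial scaling 65 of the 81 were higher and 5 lower, beside 10174 and 1230 of all 16208 genes. All 6 medians were then between 0.29 and 0.41, close to the shift of 0.29 over all genes. The counts of each list below are to be read beside these shares.

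**Figure D3:**
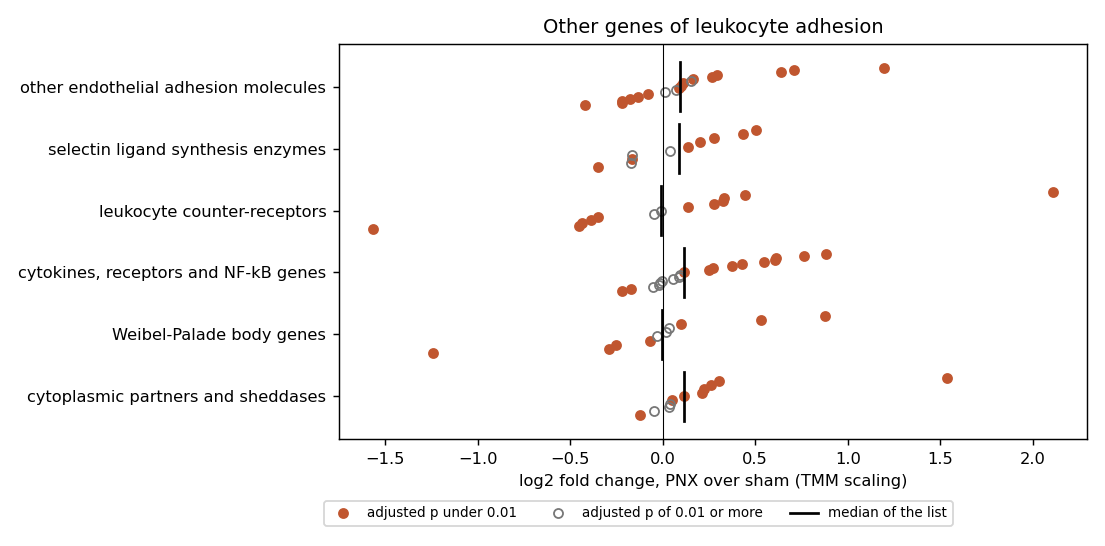
Log2 fold change of PNX over sham (horizontal axis, TMM scaling) of the 81 genes tested in 6 lists of leukocyte adhesion. Filled points had an adjusted p under 0.01, open points did not, and the bar is the median of the list. Points fall on both sides of 0 in each list, with Itgam (2.11) farthest to the right and Itgad (-1.57) farthest to the left.

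Among other adhesion molecules of ECs, 9 of 18 genes were higher and 6 lower, with a median of 0.09 (16 and 1 with the endothelial scaling, median 0.39). Aoc3, an amine oxidase of the endothelial and smooth muscle surface to which leukocytes bind, rose from a sham mean of 198 ± 1.81 to 454 ± 7.76 normalized counts (SD, n = 2 each), which is a log2 change of 1.19 ± 0.089 (SE). Of the genes in the 6 lists, Aoc3 followed Selp most closely over the 4 libraries, with a root mean square distance of 0.042 between their centred log2 values. Cd34, a sialomucin of vessels and stromal cells, had a log2 fold change of 0.71, and of 1.00 with the endothelial scaling, past the fold rule. The most abundant genes, Cdh5 (-0.22) and Podxl (-0.18), were lower with TMM but higher with the endothelial scaling (0.07 and 0.12). Cdh5, Esam and Emcn of this list are among the 12 genes that set the endothelial scaling. Their values under it, which enter the counts above, are therefore partly fixed by construction.

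Enzymes that build selectin ligands showed small changes, with 5 of 10 genes higher and 2 lower and a median of 0.09 (7 and 0 with the endothelial scaling, median 0.38). Chst4, a sulfotransferase of high endothelial venules, went from a sham mean of 317 ± 24.4 to 448 ± 8.23 normalized counts (SD, n = 2 each) (log2 fold change 0.50), and Gcnt1, which branches the sugar core of Selplg, had a log2 fold change of 0.43. The most abundant were B4galt1 (0.20) and Tpst2 (-0.17, and 0.13 with the endothelial scaling).

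The leukocyte receptors that bind the adhesion molecules split. Of 13 genes 6 were higher and 5 lower, with a median of -0.01 (7 and 3 with the endothelial scaling, median 0.29). Itgam, the alpha chain of the macrophage and neutrophil integrin that binds Icam1, rose from a sham mean of 2173 ± 79.4 to 9389 ± 68.9 normalized counts (SD, n = 2 each), which is a log2 change of 2.11 ± 0.028 (SE). Itgal, the alpha chain of the lymphocyte integrin that also binds Icam1, fell from a sham mean of 5527 ± 121 to 4080 ± 81.0 (SD, n = 2 each), which is a log2 change of -0.44. Itga4, the alpha chain that binds Vcam1 and Madcam1, had a log2 fold change of -0.46, while Itgb1, its partner, had 0.33. Itgal and Itga4, named after their values were seen, stayed lower with the endothelial scaling (-0.14 and -0.16). Itgad, a further alpha chain of the same family, fell from a sham mean of 187 ± 10.9 to 63.4 ± 4.89 (SD, n = 2 each). Markers of macrophages were higher and of T and B cells lower in the same libraries, and their part in these integrins was not tested.

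Of 19 cytokine, receptor and NF-kB genes, 10 were higher and 2 lower, with a median of 0.12 (17 and 0 with the endothelial scaling, median 0.41). Il1r1, the signalling receptor of IL1, rose from a sham mean of 2229 ± 22.5 to 3782 ± 15.8 normalized counts (SD, n = 2 each), which is a log2 change of 0.76 ± 0.032 (SE). Tnfaip3, a target and inhibitor of NF-kB, had a log2 fold change of 0.43 and was the gene of the lists closest to Vcam1, at a distance of 0.011. The abundant target Nfkbia was lower with TMM (-0.17) and higher with the endothelial scaling (0.12), and Il4ra, a receptor for type 2 cytokines that can induce Vcam1, was not called with TMM (-0.02) and was higher with the endothelial scaling (0.27). Il13, one of these cytokines, went from 24.2 ± 4.73 to 44.6 ± 4.70 normalized counts (SD, n = 2 each), a log2 fold change of 0.88. Il1r1 (1.05) and Il13 (1.18) passed the fold rule with the endothelial scaling.

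Genes of Weibel-Palade bodies, the organelle that stores P-selectin, were split, with 3 of 10 genes higher and 4 lower and a median of -0.01 (7 and 1 with the endothelial scaling, median 0.29). Vwf was nearly level (53705 ± 911 and 51148 ± 483 normalized counts, SD, n = 2, log2 fold change -0.07), lower with TMM and higher with the endothelial scaling (0.22). Cd63, a membrane protein of these bodies and of lysosomes in many cells, rose from a sham mean of 2859 ± 3.24 to 5256 ± 18.0 (SD, n = 2 each), which is a log2 change of 0.88, and of 1.17 with the endothelial scaling, past the fold rule. It was the gene closest to Sele, at a distance of 0.025. Edn1, the gene of endothelin, fell from a sham mean of 14530 ± 62.6 to 6152 ± 82.1 (SD, n = 2 each), which is a log2 change of -1.24 with TMM and -0.95 with the endothelial scaling.

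Among cytoplasmic partners and sheddases 7 of 11 genes were higher and 1 lower, with a median of 0.12 (11 and 0 with the endothelial scaling, median 0.41). Adam8, a sheddase of myeloid and activated cells, rose from a sham mean of 1139 ± 36.6 to 3299 ± 41.7 normalized counts (SD, n = 2 each), which is a log2 change of 1.53. Msn, the gene of moesin, which anchors Icam1 and Vcam1 to actin, was the gene closest to Icam1, at a distance of 0.009, with a log2 fold change of 0.05. Ctnnb1 was not called with TMM (0.04) and was higher with the endothelial scaling (0.33), and Actn1, an actin crosslinker, had 0.31. A distance over 4 libraries in 2 groups reflects mainly a like fold change.

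**Figure D4:**
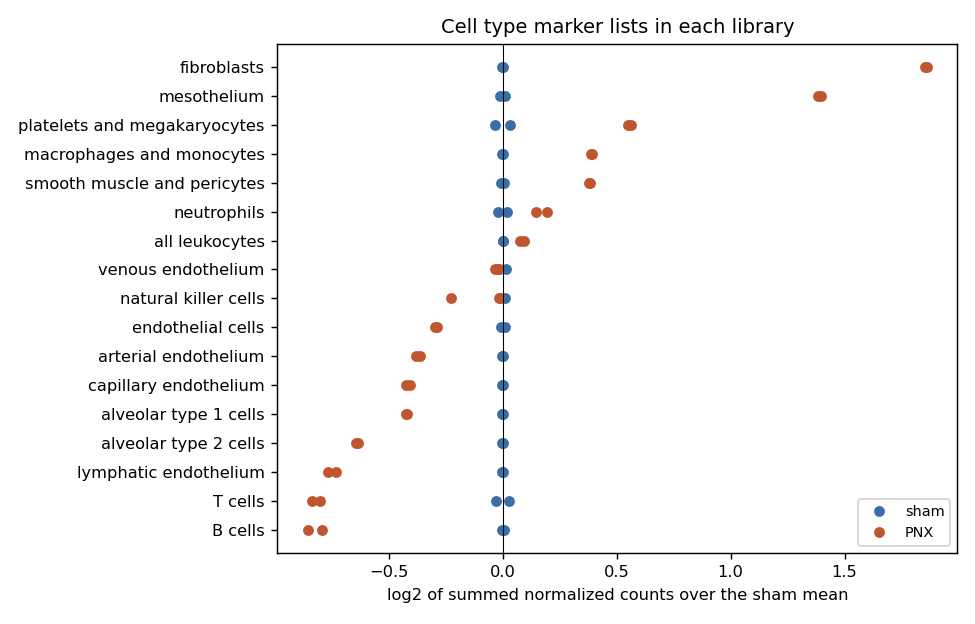
Summed normalized counts of 17 cell type marker lists in each library, as the log2 ratio to the mean of the sham libraries (horizontal axis). Each point is a library. Fibroblast, mesothelial, platelet and macrophage lists lie to the right of 0 in both PNX libraries. Lists of alveolar cells, T cells and B cells lie to the left, as do the endothelial, arterial, capillary and lymphatic lists.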

How the data were processed

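ECs of 2 sham and 2 PNX libraries were sequenced as paired ends with a stranded mRNA kit and aligned to mm10; STAR is named in the submitters' processing notes without a version, and the counting program is not given in the sources used here. The authors deposited, for each library, counts, FPKM and TPM on 33068 RefSeq transcripts. The deposited counts are whole numbers without normalization, and transcripts of a gene hold nearly the same counts where they share exons, as for Pecam1 and Cd99l2. The FPKM values deposited by the authors are scaled to transcript length and to the summed counts of all transcripts and served to compare genes; the deposited TPM values were not used. Replicate libraries differed by a mean chi-square of 1.77 (sham) and 1.53 (PNX) per gene, a little more than sampling noise. Between the first sham and the first PNX library it was 134. The median SD between libraries of a group was 0.036 on the log2 scale. The p-values rest on this small spread between 2 libraries per group and do not measure the spread between single mice. The methods describe each library as a pool of 2 mice. Whether libraries this alike were independent pools was not tested, and the p-values assume that they were.

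Each gene was represented by its most counted transcript, summed over the 4 libraries. The fit used edgeR 4.0.16 under R 4.3.3 (filterByExpr, TMM, quasi-likelihood test without covariates, Benjamini-Hochberg adjustment over 16208 genes); a standard error is the log2 fold change divided by the square root of F. The steps were tested on simulated data. Alternatives were other scalings, other filters, DESeq2 1.42.0, edgeR's glmTreat, counts summed over transcripts, the replicate number as a block, and each library left out. The members and lists were chosen with earlier results of these data known. Named are the members and, from each list, the genes past the fold rule, the 2 highest and the 2 of largest change, from each marker list the 2 highest and any gene at the floor (Ccl21a), and the gene closest to Sele, Selp, Vcam1 and Icam1 (root mean square distance of centred log2 values, prior count 0.125). Of the listed genes, Cd99 and Ly6g were not found by symbol or synonym and were not analysed here.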

Additional observations from a re-analysis of the deposited data

How the results depend on the processing

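Sele, Selp, Selplg and Vcam1 kept their direction in all 12 alternatives other than glmTreat, for which single members were not read. Their log2 fold changes ran from 0.82 to 1.15, 1.12 to 1.44, 0.34 to 0.67 and 0.43 to 0.74. They stayed past an adjusted p of 0.01 in each of these alternatives that kept all 4 libraries. Scaling to the 12 endothelial marker genes, which by construction raises every gene when these markers fall, turned Pecam1 to 0.28 and Cd99l2 to 0.17 and brought Icam1 to 0.34 past the threshold. It gave 7 members higher and 0 lower by the p rule and 2 higher by the fold rule. Over all 16208 genes it gave 10174 higher and 1230 lower by the p rule, against 4745 and 4513 with TMM. By the fold rule it gave 1397 genes higher and 74 lower, against 957 and 269 with TMM. Of the 81 adhesion list genes, 65 were then higher and 5 lower by the p rule. By the fold rule 7 of the 81 were higher and 1 lower, and the share higher was close to that over all genes. Cd99l2 was at -0.13 in DESeq2's Wald test, which left 0 members lower by the p rule (1 at an unadjusted p under 0.05 in edgeR, Cd99l2). Requiring a mean of 50 counts or more, which tests fewer genes, left 160 genes lower by the fold rule. The glmTreat test, which tests against the fold threshold itself, called 604 genes higher and 39 lower. Among the members it called 1 higher and 0 lower. With each library left out, Cd99l2 ranged from -0.15 to -0.10 and the members called lower from 0 to 1.

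The groups share replicate numbers in their titles but come from different mice, and the differences between replicates correlated at 0.023 over 13405 genes, so the numbers do not pair the libraries. With the replicate number as a block, 4824 genes were higher and 4617 lower by the p rule, Selp was at 1.14 and Sele at 0.86, and no member changed its call. With 2 libraries per group, the spread rests on few pools, and Madcam1 lies under what the depth can show.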

Other observations

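E-selectin and P-selectin are best known from venules, so lists of vessel types were read as well. Of 5 venous markers 3 were higher and 2 lower after PNX by the p rule, beside 29.3% and 27.8% of all genes. Their median log2 fold change was 0.13. Under scaling to the endothelial markers all 5 were higher, beside 10174 of all 16208 genes. Ackr1, the chemokine receptor of venules, had 41.7 and 57.1 normalized counts in sham and 132 and 154 after PNX, a log2 fold change of 1.54, and was named after its value was seen. Vwf (-0.07) and Ephb4 (-0.15), the most abundant, were lower with TMM and higher under scaling to the endothelial markers (0.22 and 0.14). Of 6 arterial markers 5 were lower and 1 higher with TMM, against 2 and 2 under scaling to the endothelial markers, with a TMM median of -0.29 and a median of -0.00 under that scaling. Efnb2 had -0.63 and Sox17 0.19. Of 6 capillary markers 5 were lower and 1 higher in both scalings, with medians of -0.52 and -0.22. Plvap had -0.65 and Car4 0.24. Of 4 lymphatic markers tested 2 were higher and 1 lower, with Lyve1 at -1.14 and Flt4 at -0.02, and under scaling to the endothelial markers 3 were higher and 1 lower, with Lyve1 at -0.85, short of the fold rule, and Flt4 at 0.27, while Ccl21a had at most 3 counts in every library.

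Alveolar type 2 markers were lower in 5 of 5 genes in both scalings, with medians of -0.65 and -0.36. Sftpc had -0.62 and Sftpa1 -0.71.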
